A study of Mus musculus with 40 samples.

Results

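The 10 genes described here are 5 mRNAs known to lie in dendrites (Arc, Ddn, Map2, Nrgn and Ppp1r9b) and 5 nuclear factors whose transcription is switched on by neuronal activity (Fos, Egr1, Nr4a1, Junb and Npas4). They were taken by name, as the rows whose Ensembl gene identifier carries one of these symbols in GENCODE M21, and make up 10 of the 41388 genes counted. All 10 passed the filter on low counts, which asked for 0.5 cpm (the usual depth-scaled count, a gene's reads relative to the size of its library) in 3 or more libraries, in every comparison.

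Most mRNAs of a neuron stay in the cell body, where they are translated near the nucleus. A smaller set is packed into granules with RNA-binding proteins, carried along microtubules into dendrites and translated close to synapses. The activity-induced factors follow another course: calcium entry switches their genes on within minutes, their mRNAs are short-lived, and the proteins return to the nucleus to regulate further genes. Arc belongs to both kinds, being an immediate early gene whose mRNA is moved into dendrites.

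All mice carried a Cre-dependent reporter at the Rosa26 locus that places GFP on the ribosomal protein Rpl10a, so that ribosomes of Cre-expressing cells can be captured with their RNA (translating ribosome affinity purification, TRAP). RBP4-TRAP mice expressed Cre from Tg(RBP4-cre)KL100Gsat/Mmcd, a transgene active in layer 5 pyramidal neurons, and VGAT-TRAP mice from Slc32a1tm2(cre)Lowl/J, an allele of the vesicular GABA transporter that is active in GABAergic neurons. Mice were 21 days old, and each of the 5 replicates of a line was a pool of 2 to 3 forebrains of both sexes. From every pool 4 libraries were made: whole-cell homogenate (WCH), TRAP from the homogenate (TRAP), the synaptoneurosome fraction (SNF), which holds pinched-off synaptic endings, and TRAP performed on that fraction (SynapTRAP, ST). The labels give cortex as the tissue while the methods describe forebrain, and 6 of 6 markers of striatal projection neurons were higher in TRAP than in WCH of VGAT-TRAP mice, with a median log2 fold change of 2.39. No library of mice without the tag was analysed here.

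Total counts were 14259535 to 22037703 per library. Fezf2, a layer 5 transcription factor, lay at 79.5 to 167.5 cpm in TRAP of RBP4-TRAP mice and at 4.10 to 18.6 cpm in TRAP of VGAT-TRAP mice, whereas in ST it lay at 10.9 to 46.4 and 14.9 to 18.9 cpm. Of 5 layer 5 and excitatory markers, 4 were higher in TRAP of RBP4-TRAP than of VGAT-TRAP mice (12.9% of all genes). The other, Bcl11b, was lower, as were 5 of 5 GABAergic markers (15.1% of all genes). The GABAergic marker Slc32a1 lay at 10.9 to 49.9 cpm (RBP4) and 23.3 to 51.35 cpm (VGAT) in ST. ST was not free of other cells: 6 of 6 astrocyte markers were higher in ST than in TRAP in each line, with medians of 3.56 (RBP4) and 3.91 (VGAT) on the log2 scale. So were 6 of 6 oligodendrocyte, 6 of 6 microglia, 5 of 5 endothelial and 4 of 4 mural markers, with endothelial medians of 5.58 and 6.04. Of all genes 26% (RBP4) and 37.5% (VGAT) were called higher. Some libraries stood apart. RBP4 ST replicate 4 held 49.9 cpm of Slc32a1, the vesicular GABA transporter, against 10.9 to 19.7 cpm in the other 4 libraries of that group, and RBP4 TRAP replicate 5 held the highest summed level of GABAergic markers in its group (436.5 cpm, group median 113). This TRAP library also held the highest summed oligodendrocyte level (5508 cpm, median 918) and astrocyte level (1276 cpm, median 637) of its group. VGAT TRAP replicate 3 held 155 cpm of Slc17a7, the vesicular glutamate transporter, against 24.6 to 48.8 cpm in the other 4, and its 18.6 cpm of Fezf2 stood against 4.10 to 5.76 cpm. It also held the highest summed astrocyte level (917 cpm, median 233) and oligodendrocyte level (2413 cpm, median 600) of its group. Mitochondrial genes took up to 40.2% and 41.9% of counts in SNF, the maximum being replicate 3 in both lines, and replicate 3 also had the highest summed astrocyte level in SNF and ST of both lines (17312 to 21316 cpm). Values without such a library are given where they change a call or direction or clearly move a value.

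Most dendritic mRNAs parted from the activity-induced factors between the fractions. From SNF to ST, 4 of 5 dendritic mRNAs rose in each line (Ppp1r9b, Ddn, Arc and Map2), by 1.74- to 4.54-fold, against 5.64% of all genes tested in RBP4-TRAP mice and 16.3% in VGAT-TRAP mice. Among the activity-induced factors 0 of 5 were higher in either line by edgeR's quasi-likelihood test (p-values adjusted by Benjamini-Hochberg), and Egr1 fell in VGAT-TRAP mice, where 11.2% of genes did (5.46% in RBP4-TRAP mice). With TMM factors, which rescale the libraries on the bulk of genes, 11.7% of genes were called higher and 14.6% lower in VGAT-TRAP mice, and the same numbers of dendritic mRNAs and activity-induced factors were called. Of the activity-induced factors in RBP4-TRAP mice, 0 reached an unadjusted p under 0.05 and 0 were called by DESeq2. In ratios of ST to SNF within a pool, the 5 dendritic mRNAs were above 1 in 24 of 25 cases (RBP4) and 22 of 25 (VGAT). Without Nrgn, which did not rise, this was 20 of 20 in each line. The 5 activity-induced factors were above 1 in 11 of 25 (RBP4) and 8 of 25 (VGAT), and without Npas4 in 8 of 20 and 7 of 20. Among them Nr4a1 was above 1 in 5 of 5 pools of each line. The share of all genes above 1 was not counted. In the same step 0 of 6 astrocyte markers were called in RBP4-TRAP mice and 1 rose and 1 fell in VGAT-TRAP mice (medians -0.05 and 0.17), while 3 and 2 of 5 endothelial markers and 3 and 3 of 6 oligodendrocyte markers rose. Of the markers of the tagged cells, 0 of 5 layer 5 and excitatory markers were called in RBP4-TRAP mice. In VGAT-TRAP mice 2 of 5 GABAergic markers rose and 0 fell. Of the glial markers, 1 oligodendrocyte marker and 2 of 6 microglia markers fell in VGAT-TRAP mice. The part of these cells in the values of the 10 genes was not tested.

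**Figure D1:**
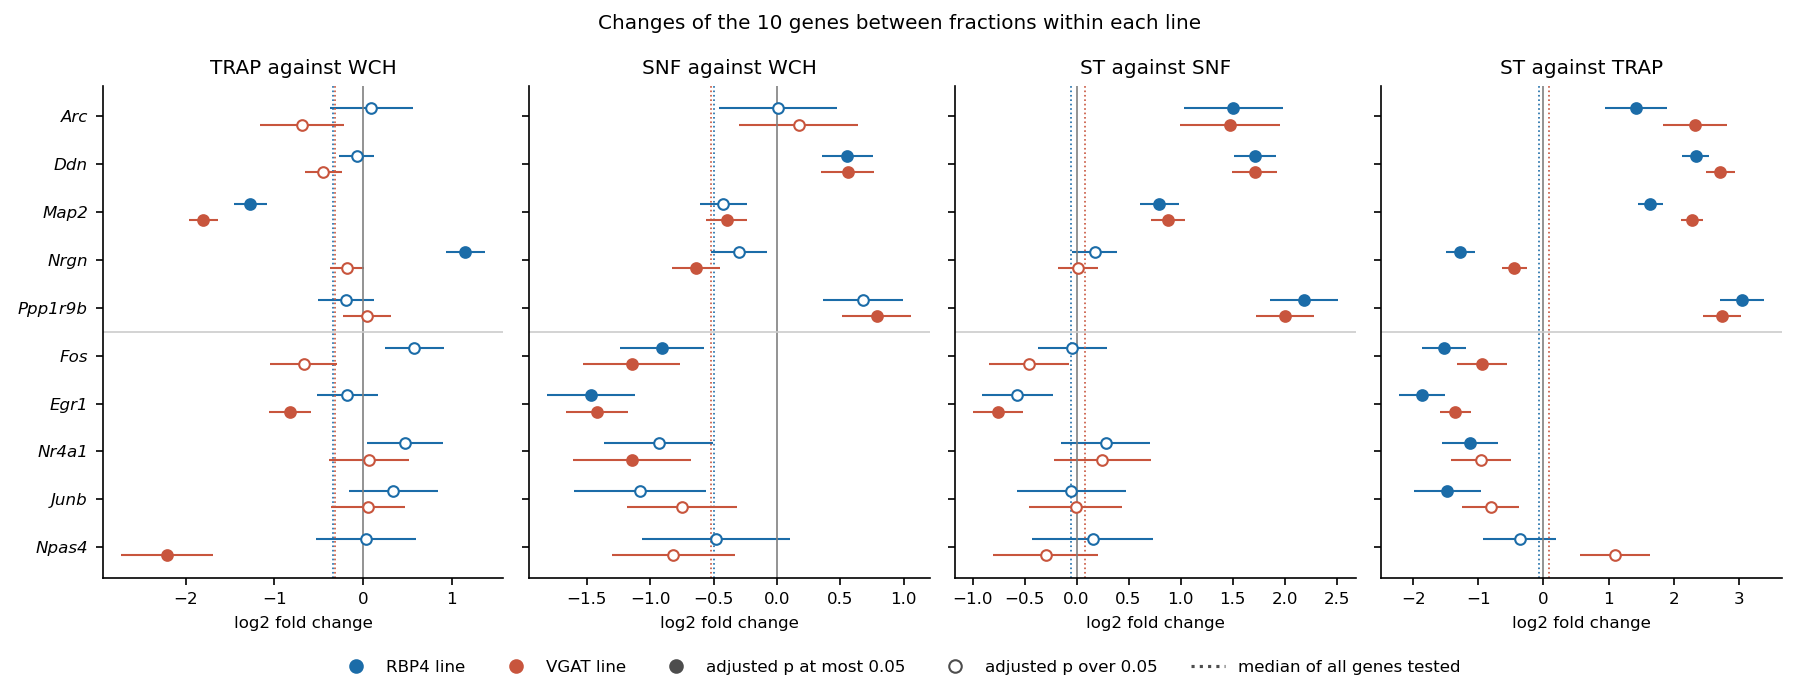
Log2 fold changes of the 10 genes between fractions, with SE bars, for the RBP4 line (blue) and the VGAT line (red). Filled points have an adjusted p of at most 0.05, and dotted lines mark the median of all genes tested. In ST against SNF, Arc, Ddn, Map2 and Ppp1r9b lie right of 0 in both lines, between 0.80 and 2.18, while 9 of the 10 values of the activity-induced factors are open points.

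Ppp1r9b (ENSMUSG00000038976, chr11:94991035-95006899 of GRCm38, plus strand, 5083 exonic bases) encodes spinophilin, which binds actin and protein phosphatase 1 in dendritic spines. In RBP4-TRAP mice its level in ST was 332, 289, 921, 487 and 338 cpm in replicates 1 to 5. The SNF of the same pools held 94.0, 65.9, 163, 115 and 82.7 cpm. Every ST library stood above every SNF library. In VGAT-TRAP mice the ST levels were 443, 363, 836, 319 and 390.5 cpm and the SNF levels 111, 109.7, 175, 78.0 and 115 cpm, again without overlap. The log2 fold change of ST against SNF was 2.18 ± 0.33 (SE, adjusted p = 0.00013) in RBP4-TRAP mice, rank 58 from the top of 17043 genes, and 2.0 ± 0.28 (adjusted p = 1.08e-05) in VGAT-TRAP mice, rank 86 of 16990. Replicate 3, with its high mitochondrial and astrocyte levels, was the highest ST library for Ppp1r9b in both lines. Without it the log2 fold changes were 2.01 (adjusted p = 0.000962) and 1.87 (adjusted p = 5.14e-07), and without RBP4 replicate 4 the former was 2.21 (adjusted p = 0.00427).

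Ddn (ENSMUSG00000059213, chr15:98803782-98807925, minus strand, 3740 exonic bases) encodes dendrin, a protein of the postsynapse. Its exons overlap those of B130046B21Rik on the other strand, and the library kit did not mark strand, so reads of the overlap cannot be told apart. ST held 337, 352, 544, 599.6 and 287 cpm in RBP4-TRAP mice, and SNF 126, 110.1, 163, 126 and 121 cpm. The corresponding values in VGAT-TRAP mice were 475, 491, 688, 379 and 464 cpm in ST and 126, 143, 225, 123 and 146 cpm in SNF. The ranges did not overlap in either line. Ddn rose by 1.72 ± 0.20 on the log2 scale (adjusted p = 1.82e-05) and by 1.71 ± 0.21 (adjusted p = 2.68e-06), and without RBP4 replicate 4, its highest library, by 1.55 (adjusted p = 0.00122).

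Map2 (ENSMUSG00000015222, chr1:66175273-66442583, plus strand, 16449 exonic bases) encodes the microtubule-associated protein that marks dendrites and cell bodies, and its exons overlap those of Gm10558 on the other strand. ST levels of 1118, 1143, 1216, 1225 and 953 cpm in RBP4-TRAP mice stood above SNF levels of 737, 550.0, 667, 648 and 655 cpm. In VGAT-TRAP mice 1061, 1100.0, 1068, 1421 and 1477 cpm in ST stood above 615, 596, 826, 548 and 745 cpm in SNF. The increases were smaller than those of Ppp1r9b and Ddn, at 0.80 ± 0.19 (adjusted p = 0.00688) and 0.88 ± 0.16 (adjusted p = 0.000256). Without replicate 4 the value in RBP4-TRAP mice was 0.76 with an adjusted p of 0.05004, just missing the threshold.

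Arc (ENSMUSG00000022602, chr15:74669083-74672570, minus strand, 3057 exonic bases) encodes a postsynaptic protein that takes part in the removal of AMPA receptors. In RBP4-TRAP mice ST held 152, 177, 42.1, 214 and 97.3 cpm, and SNF 48.6, 65.2, 11.0, 75.2 and 39.6 cpm. VGAT-TRAP mice had 257, 251, 101, 152 and 52.9 cpm in ST and 84.2, 111, 24.9, 52.4 and 20.1 cpm in SNF. The groups overlapped, because pools differed far more for Arc than for the other dendritic mRNAs, yet within each pool ST exceeded SNF by 2.46- to 3.80-fold (RBP4) and by 2.27- to 4.04-fold (VGAT). With the pool as a block, 4 of 5 dendritic mRNAs, Arc among them, were called in each line. That fit called 7.46% (RBP4) and 19.3% (VGAT) of all genes higher. Without the block, the fitted log2 fold changes were 1.51 ± 0.47 (adjusted p = 0.0414) and 1.47 ± 0.48 (adjusted p = 0.0241). Leaving out a single pool ended the call while hardly moving the value: in RBP4-TRAP mice 1.47 without replicate 1 (adjusted p = 0.17), 1.54 without 2 (0.098), 1.51 without 4 (0.119) and 1.55 without 5 (0.071), and in VGAT-TRAP mice 1.42 without replicate 1 (0.0752) and 1.46 without 4 (0.0911).

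Nrgn (ENSMUSG00000053310, chr9:37544492-37552904, minus strand, 1453 exonic bases) encodes neurogranin, a calmodulin-binding protein of excitatory neurons, and behaved unlike the other dendritic mRNAs. In ST it lay at 302, 283, 472, 385 and 558 cpm in RBP4-TRAP mice, overlapping the SNF levels of 290.2, 254, 453, 440.4 and 336 cpm. In VGAT-TRAP mice ST held 284, 276, 575, 275 and 343 cpm against 380.3, 390.3, 363, 281 and 322 cpm in SNF. The log2 fold changes of ST against SNF were 0.17 ± 0.22 (adjusted p = 0.677) and 0.01 ± 0.19 (adjusted p = 0.971), and the latter was -0.22 without replicate 3 (adjusted p = 0.265).

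**Figure D2:**
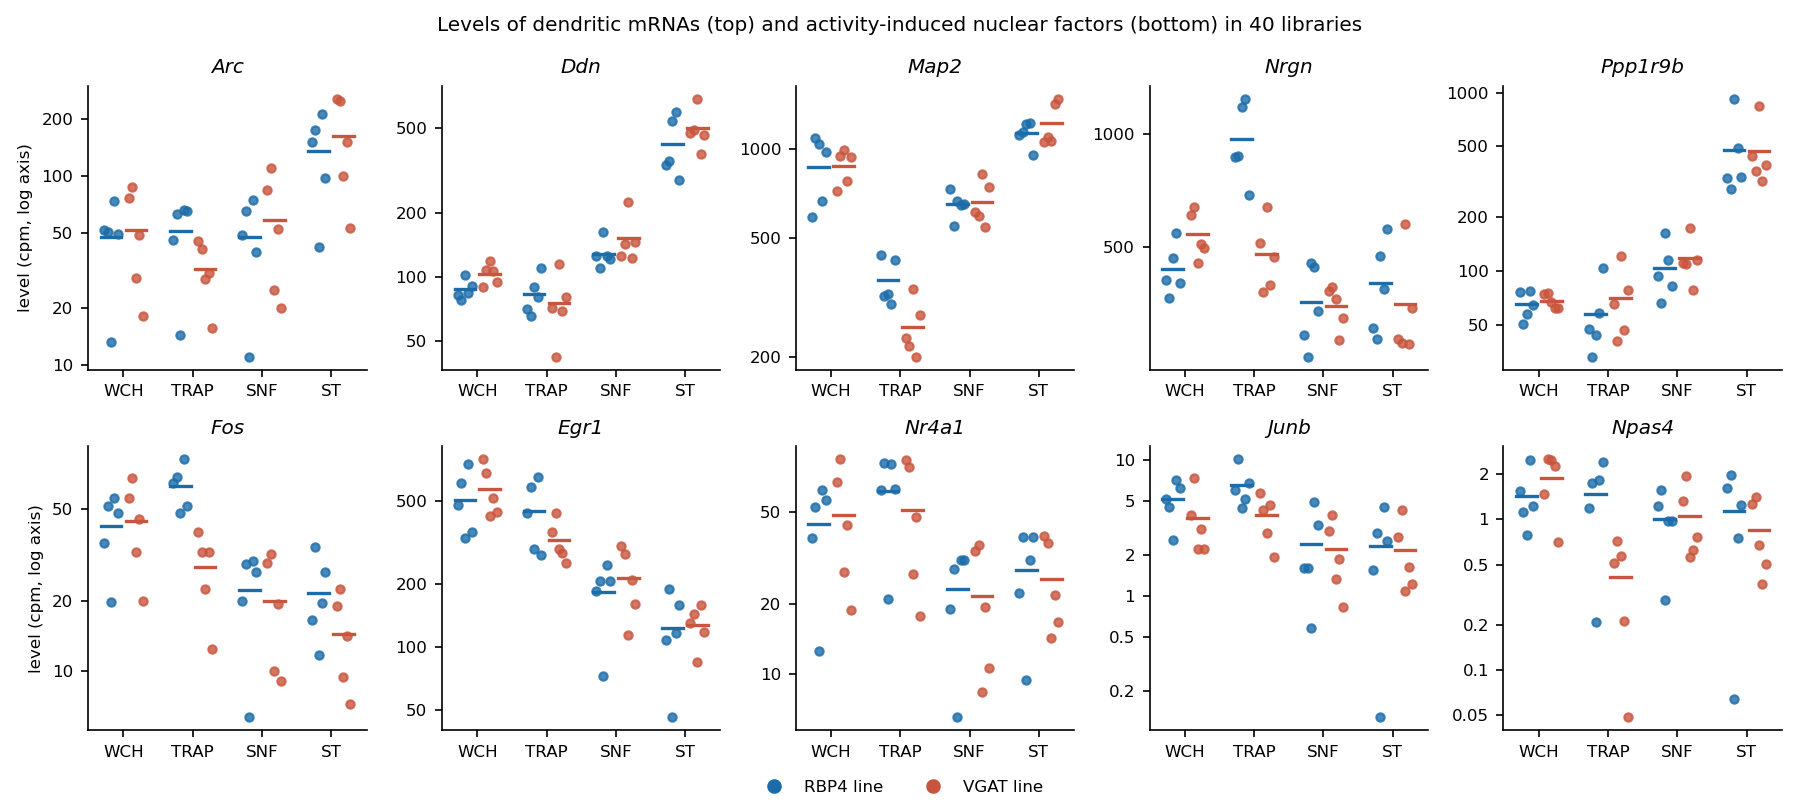
Level of each gene in the 40 libraries, in cpm on log axes, by fraction; points are libraries and lines are means of 5, in blue for RBP4-TRAP and red for VGAT-TRAP mice. Arc, Ddn, Map2 and Ppp1r9b have their highest means in ST of both lines, Nrgn has its highest mean in RBP4 TRAP (972 cpm), and the activity-induced factors have lower means in SNF and ST than in WCH and TRAP, with the exception of Npas4 in VGAT TRAP.

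The comparison of SNF with WCH asks which mRNAs go with the synaptoneurosome fraction. The median of all genes was below 0 here, at -0.50 (RBP4) and -0.52 (VGAT) on the log2 scale, and 13.4% of genes were called higher and 36.1% lower in RBP4-TRAP mice, 19.3% and 45.2% in VGAT-TRAP mice. With TMM factors those medians were -0.17 in both lines, and the calls were 19.3% higher and 17.9% lower in RBP4-TRAP mice and 24.6% and 27.9% in VGAT-TRAP mice. Changes are therefore also set against the all-gene median. In bulk fractions a lower share of reads may come from fewer cells or endings of a type or from less RNA in each, and these cannot be told apart. Glial markers rose in this step: 6 of 6 astrocyte markers in each line (medians 1.38 and 1.47). Of 6 oligodendrocyte markers 4 (RBP4) and 5 (VGAT) rose, and of 6 microglia markers 5 and 6. Of 5 layer 5 and excitatory markers 4 and 3 fell, and of 5 GABAergic markers 3 and 4, while 1 of each kind rose in each line. The part of these cells in the values of the dendritic mRNAs and activity-induced factors was not tested.

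Among the activity-induced factors, 2 of 5 fell in RBP4-TRAP mice (Egr1 and Fos) and 3 of 5 in VGAT-TRAP mice (Egr1, Fos and Nr4a1). Of all genes 36.1% and 45.2% fell, so that with 5 factors these counts are no clear excess. The ratio of SNF to WCH within a pool was below 1 in every one of 20 cases in each line for the 4 factors other than Npas4, at -2.20 to -0.54 (RBP4) and -1.90 to -0.37 (VGAT) on the log2 scale. The share of all genes below 1 was not counted, and the all-gene medians were themselves -0.50 and -0.52. With the pool as a block, 4 of 5 factors fell in RBP4-TRAP mice and 5 of 5 in VGAT-TRAP mice, where that fit called 40.7% and 47.8% of all genes lower. With TMM factors only Egr1 was called in each line.

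Egr1 (ENSMUSG00000038418, chr18:34859823-34864984, plus strand, 4484 exonic bases) encodes a zinc finger factor used as a marker of recent activity. In WCH it stood at 483, 615, 336, 756 and 357 cpm in RBP4-TRAP mice, and in SNF at 185, 207, 72.8, 246 and 208 cpm. In VGAT-TRAP mice it stood at 798, 684, 425, 519 and 444 cpm in WCH and at 305, 280.2, 114, 211 and 161 cpm in SNF. No SNF library reached the lowest WCH library of its line. The log2 fold changes were -1.47 ± 0.35 (adjusted p = 0.00175) and -1.42 ± 0.24 (adjusted p = 3.14e-05), which lie 0.97 and 0.90 below the median of all genes. In ST the levels were lower still, at 108, 190.2, 46.1, 117 and 159 cpm (RBP4) and 131, 144, 84.4, 159 and 118 cpm (VGAT). Against SNF this was a fall of 0.75 ± 0.24 in VGAT-TRAP mice (adjusted p = 0.0218), which missed the threshold without replicate 1 (-0.60, adjusted p = 0.112), without replicate 2 (-0.69, adjusted p = 0.0807) and in a fit of all 40 libraries (-0.75, adjusted p = 0.0817), and a value of -0.57 ± 0.34 in RBP4-TRAP mice (adjusted p = 0.31).

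Fos (ENSMUSG00000021250, chr12:85473890-85477273, plus strand, 2352 exonic bases) encodes a subunit of the AP-1 factor. Its WCH levels were 35.6, 51.6, 19.9, 55.8 and 48.1 cpm in RBP4-TRAP mice and 56.1, 68.3, 32.8, 45.5 and 20.2 cpm in VGAT-TRAP mice. SNF held 20.1, 29.0, 6.35, 29.8 and 26.9 cpm and 29.2, 32.1, 10.1, 19.5 and 9.12 cpm, so that the groups overlapped, although the ratio of SNF to WCH within a pool was at most 0.565 (RBP4) and 0.520 (VGAT). The log2 fold changes were -0.91 ± 0.33 (adjusted p = 0.0282) and -1.15 ± 0.38 (adjusted p = 0.012), or 0.41 and 0.63 below the median of all genes. With TMM factors they were -0.58 (adjusted p = 0.16) and -0.78 (adjusted p = 0.0964), and in RBP4-TRAP mice the adjusted p was 0.0807 without replicate 1, 0.0568 without 2 and 0.0718 without 4. From SNF to ST the change was -0.04 ± 0.33 (RBP4) and -0.46 ± 0.39 (VGAT), and with the pool as a block the latter was -0.42 (adjusted p = 0.0191).

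Nr4a1 (ENSMUSG00000023034, chr15:101266846-101274792, plus strand, 2474 exonic bases) encodes an orphan nuclear receptor. WCH held 38.7, 52.3, 12.6, 61.8 and 56.3 cpm in RBP4-TRAP mice, and SNF 19.1, 28.3, 6.55, 30.9 and 31.0 cpm. In VGAT-TRAP mice the levels were 67.1, 84.2, 27.6, 43.9 and 18.9 cpm and 33.8, 36.1, 8.38, 19.5 and 10.6 cpm. The ratio of SNF to WCH was nearly the same in the 5 RBP4-TRAP pools, from 0.493 to 0.551, while the pools themselves differed up to 4.91-fold in WCH. The unblocked fit gave -0.93 ± 0.43 (adjusted p = 0.0752) in RBP4-TRAP mice and -1.15 ± 0.46 (adjusted p = 0.0351) in VGAT-TRAP mice, and the former was -0.94 ± 0.14 with the pool as a block (adjusted p = 7.53e-05) and -0.93 without replicate 3 (adjusted p = 0.00301). The VGAT-TRAP call was lost without replicate 1 (adjusted p = 0.051), 2 (0.0647) or 4 (0.0978), and with TMM factors (-0.78, 0.165). From SNF to ST the values were 0.28 ± 0.43 (RBP4, adjusted p = 0.733) and 0.25 ± 0.46 (VGAT, adjusted p = 0.743). ST exceeded SNF in 5 of 5 pools of each line.

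Junb (ENSMUSG00000052837, chr8:84976909-84978748, minus strand, 1 exon of 1840 bases) encodes an AP-1 partner of Fos and was counted at low levels, from 2.23 to 7.36 cpm in WCH and from 0.587 to 4.96 cpm in SNF. Its lowest library was RBP4 ST replicate 3, with 0.129 cpm. The SNF against WCH values of -1.08 ± 0.52 (adjusted p = 0.0866) and -0.75 ± 0.44 (adjusted p = 0.138) missed the threshold, and with the pool as a block they were -1.25 (adjusted p = 0.0113) and -0.80 (adjusted p = 0.00486). Without replicate 3 the RBP4-TRAP value was -1.01 (adjusted p = 0.0392).

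Npas4 (ENSMUSG00000045903, chr19:4984355-4989971, minus strand, 3277 exonic bases), a factor induced by calcium entry in neurons, was the rarest of the 10 genes, with 1 to 44 reads in a library. Counting error alone is therefore large. SNF against WCH gave -0.48 ± 0.58 (adjusted p = 0.502) and -0.82 ± 0.48 (adjusted p = 0.143), the latter being -0.86 (adjusted p = 0.0458) with the pool as a block.

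The upstream sequences of Fos and Nr4a1, the pair among the other 9 genes whose levels moved most closely with Arc over the pools (given further on), are printed to show where TGACG, the core of the site bound by CREB, or its complement CGTCA occurs. Of the 10 genes 7 had an entry in the RefSeq promoter table of GRCm38.p6, the exceptions being Arc, Ddn and Egr1. Either motif was found in 20.8% of all 32851 promoters of 300 bases (250 before and 50 after the start), searching both strands, and it occurred 2 times for Fos, 4 times for Nr4a1, once for Junb and 2 times for Npas4, and 0 times for Map2, Nrgn and Ppp1r9b. The full palindrome TGACGTCA (in 1.79% of all promoters) and the CArG box (CC, a run of A or T, then GG, in 1.63%) were also searched. Neither occurred in the 7 promoters. A match is a description of letters and not of binding. The runs below give the 250 bases before the start, 5′ to 3′ on the gene's strand, with the motif in capitals, for Fos at chr12:85473640-85473889 and Nr4a1 at chr15:101266596-101266845 (both plus strand).
Fos: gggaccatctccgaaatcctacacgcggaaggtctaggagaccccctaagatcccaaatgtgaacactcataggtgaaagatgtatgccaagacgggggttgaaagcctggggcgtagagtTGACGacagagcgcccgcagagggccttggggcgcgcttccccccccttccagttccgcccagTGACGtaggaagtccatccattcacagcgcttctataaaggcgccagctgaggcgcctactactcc
Nr4a1: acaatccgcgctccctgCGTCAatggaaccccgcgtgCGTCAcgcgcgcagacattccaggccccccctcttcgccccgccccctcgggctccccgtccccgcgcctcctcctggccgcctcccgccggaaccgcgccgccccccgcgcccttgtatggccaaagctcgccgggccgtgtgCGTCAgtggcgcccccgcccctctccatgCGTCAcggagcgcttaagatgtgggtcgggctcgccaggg
For Junb (chr8:84978840-84978864, minus strand) and Npas4 (chr19:4990126-4990150, minus strand), 25 bases around a motif are shown, and both matches of Npas4 lie in its window.
Junb: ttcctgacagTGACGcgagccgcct
Npas4: CGTCAcgggaTGACGtcggaagtct

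The 3′ UTR of Fos also held the AU-rich nonamer TTATTTATT, a type of element known for shortening the life of mRNAs, 161 bases from its end. Of the 16573 mouse 3′ UTRs of at least 300 bases, 2.23% held it within their last 300 bases, and of the other 9 genes 0 held it there. The element is shown in capitals within 25 bases of the UTR.
Fos element: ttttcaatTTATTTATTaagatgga

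The dendritic mRNAs moved apart from one another between WCH and SNF. Ddn rose in both lines, from 82.2, 78.5, 102, 84.4 and 91.4 cpm in WCH of RBP4-TRAP mice and from 89.8, 108, 119, 107 and 94.5 cpm in VGAT-TRAP mice, with log2 fold changes of 0.56 ± 0.20 (adjusted p = 0.0238) and 0.56 ± 0.21 (adjusted p = 0.0237). No SNF library of either line lay within the WCH range. The call was lost in RBP4-TRAP mice without replicate 1 (adjusted p = 0.0773), 2 (0.0521), 3 (0.057) or 4 (0.0575) and in VGAT-TRAP mice without 1 (0.0583) or 5 (0.074), with values of 0.52 to 0.57. Ppp1r9b, at 50.6 to 77.0 cpm in WCH of RBP4-TRAP mice and 61.7 to 74.8 cpm in VGAT-TRAP mice, rose in the latter by 0.79 ± 0.27 (adjusted p = 0.0149, and 0.0517 without replicate 5). In RBP4-TRAP mice its value was 0.68 ± 0.32 (adjusted p = 0.0774), 1.05 with TMM factors (adjusted p = 0.0181) and 0.42 without replicate 3 (adjusted p = 0.241). Arc showed no difference that passed the test, at 0.01 ± 0.47 and 0.17 ± 0.47.

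Nrgn and Map2 fell from WCH to SNF in VGAT-TRAP mice, by 0.64 ± 0.19 (adjusted p = 0.00565) and 0.40 ± 0.16 (adjusted p = 0.0346), and in RBP4-TRAP mice the values were -0.30 ± 0.22 (adjusted p = 0.263) and -0.42 ± 0.19 (adjusted p = 0.0612). Set against the all-gene median they were within 0.20 of 0: Nrgn at 0.20 (RBP4) and -0.12 (VGAT), and Map2 at 0.08 and 0.12. With TMM factors neither was called in VGAT-TRAP mice (-0.28 for Nrgn, adjusted p = 0.283, and -0.04 for Map2, adjusted p = 0.844). Map2 also missed the threshold without replicate 1 (0.054), 2 (0.147), 4 (0.0762) or 5 (0.0653). Its WCH levels were 591, 1089, 1037, 671 and 979 cpm (RBP4) and 723, 951, 997, 778 and 939 cpm (VGAT).

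**Figure D3:**
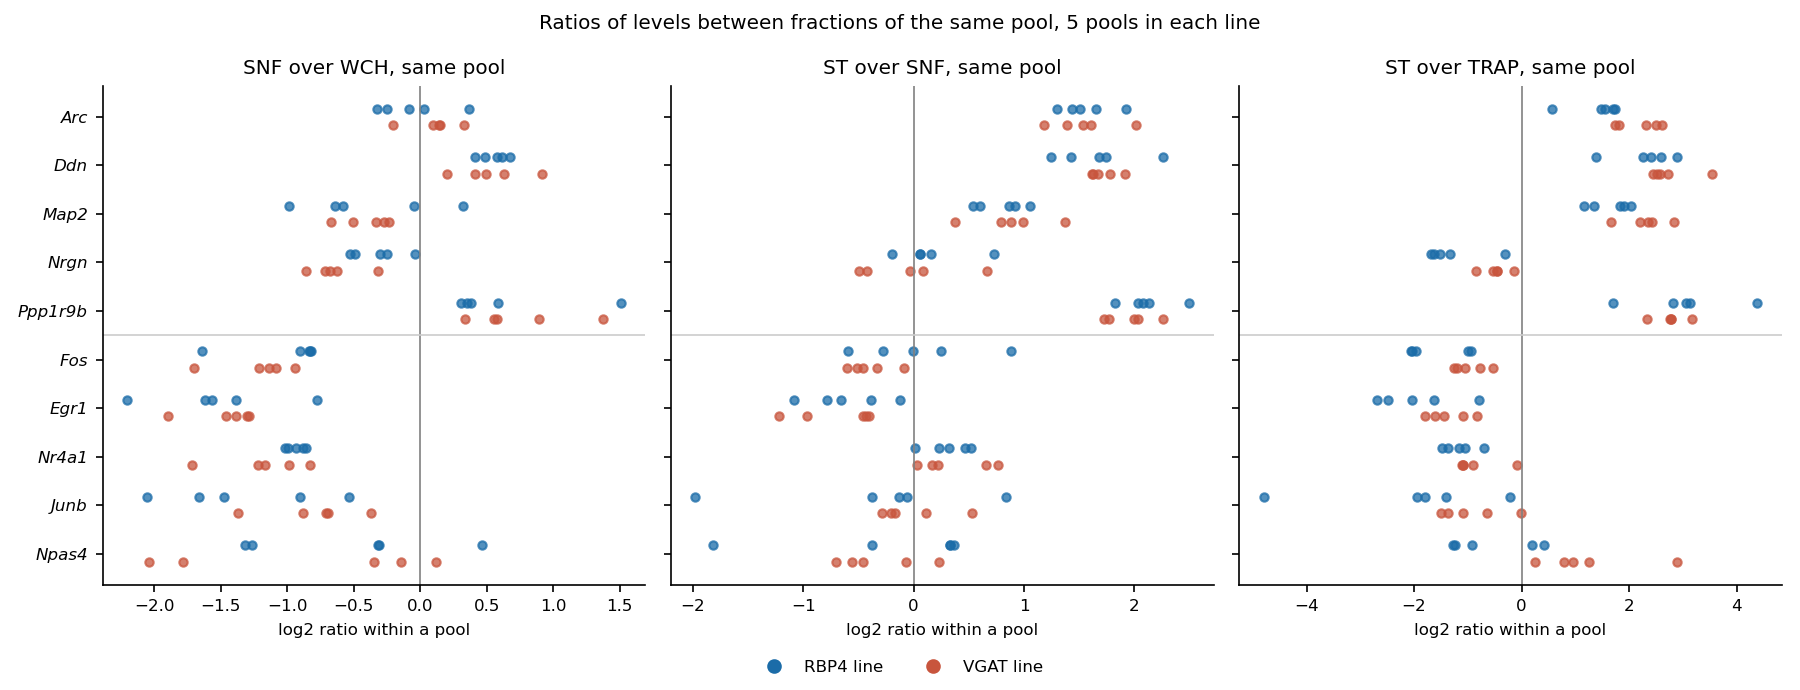
Log2 ratios of levels between fractions of the same pool, with 5 pools per line (blue RBP4, red VGAT) and a vertical line at 0. In SNF over WCH, Fos, Egr1, Nr4a1 and Junb lie below 0 in every pool; in ST over SNF, Arc, Ddn, Map2 and Ppp1r9b lie above 0 in every pool, from 0.37 to 2.49.

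TRAP against WCH compares ribosome-bound RNA of the tagged cells with RNA of the whole tissue. In RBP4-TRAP mice 1 of the 10 genes rose (Nrgn, against 8.37% of all genes) and 1 fell (Map2, against 31.5%), and in VGAT-TRAP mice 0 rose (21% of all genes) and 3 fell (Map2, Egr1 and Npas4, against 41.8%). With TMM factors 19.3% of genes passed upward and 22.4% downward in the RBP4 line, and 29.4% and 32.5% in the VGAT line. The median of all genes was -0.34 and -0.31. With the pool as a block, 4 genes were called in RBP4-TRAP mice, with Fos (0.68, adjusted p = 0.0129) and Nr4a1 (0.53, adjusted p = 0.00505) as the additions, and 6 in VGAT-TRAP mice, with Arc (-0.53, adjusted p = 0.00606), Ddn (-0.50, adjusted p = 0.00669) and Fos (-0.64, adjusted p = 0.00021). That fit called 10.4% of all genes higher and 37.2% lower in RBP4-TRAP mice and 22.4% and 44.2% in VGAT-TRAP mice.

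Map2 was the member with the lowest TRAP levels relative to WCH in RBP4-TRAP mice. Its TRAP levels were 441, 319, 326, 300.4 and 423 cpm in RBP4-TRAP mice and 231, 216, 337, 199.6 and 276 cpm in VGAT-TRAP mice, all below every WCH library of the same line. The log2 fold changes were -1.27 ± 0.19 (adjusted p = 2.24e-05) and -1.80 ± 0.17 (adjusted p = 1.69e-08). Nrgn moved the other way in RBP4-TRAP mice. It went from 407, 365, 467, 543 and 400.0 cpm in WCH to 869, 875, 1185, 1244 and 689 cpm in TRAP, an increase of 1.16 ± 0.22 (adjusted p = 0.00034), and without TRAP replicate 5 and its pool of 1.23 (adjusted p = 0.000293). In VGAT-TRAP mice Nrgn stood at 609.8, 640.5, 453, 509 and 497 cpm in WCH and at 513, 379, 637, 396 and 469.6 cpm in TRAP, with overlap and a value of -0.18 ± 0.19 (adjusted p = 0.422). Without replicate 3, whose TRAP library had raised excitatory and glial markers, Nrgn was called lower (-0.36, adjusted p = 0.0324), and so was Ddn (-0.59, adjusted p = 0.00317, against -0.45 and 0.0665 with it). That pool was the 1 VGAT-TRAP pool with more Nrgn in TRAP than in WCH.

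Of the activity-induced factors, Egr1 fell in TRAP of VGAT-TRAP mice to 356, 439.8, 294, 282 and 252 cpm (-0.82 ± 0.24, adjusted p = 0.00533). Its TRAP levels in RBP4-TRAP mice were 441, 586, 297, 655 and 277 cpm (-0.17 ± 0.34, adjusted p = 0.708). Npas4 fell in VGAT-TRAP mice by 2.21 ± 0.52 (adjusted p = 0.00097), where 24, 44, 38, 37 and 13 reads in WCH compare with 8, 12, 9, 4 and 1 reads in TRAP. In RBP4-TRAP mice the reads were 23, 18, 13, 38 and 20 in WCH and 20, 35, 4, 40 and 43 in TRAP. For Fos the TRAP levels were 64.8, 68.4, 48.3, 82.0 and 51.4 cpm in RBP4-TRAP mice, each above WCH of its own pool, and 39.9, 32.6, 22.7, 32.6 and 12.4 cpm in VGAT-TRAP mice, each below it. Without the block these were 0.58 ± 0.33 (adjusted p = 0.166, and 0.0321 with TMM factors, at 0.87) and -0.67 ± 0.38 (adjusted p = 0.125).

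ST against TRAP sets RNA captured from the synaptic fraction beside that captured from the homogenate. The glial levels given above differed between these fractions too, and so did markers of the tagged cells. In VGAT-TRAP mice 5 of 5 GABAergic markers fell from TRAP to ST (median -3.11). Of 5 layer 5 and excitatory markers, 4 rose and 1 fell there. In RBP4-TRAP mice 3 of 5 layer 5 and excitatory markers fell and 1 rose, while 3 of 5 GABAergic markers rose and 0 fell. The part of glia or of other neurons in the values of the 10 genes was not tested. In RBP4-TRAP mice 4 of 10 genes rose (26% of all genes) and 5 fell (29.1%), and in VGAT-TRAP mice 4 rose (37.5%) and 3 fell (34%). The 4 that rose were Arc, Ddn, Map2 and Ppp1r9b in each line. In RBP4-TRAP mice they rose by 1.42 ± 0.47, 2.34 ± 0.21, 1.64 ± 0.19 and 3.05 ± 0.34 on the log2 scale, with adjusted p-values of 0.0138, 4.09e-08, 4.35e-07 and 2.83e-07. In VGAT-TRAP mice the increases were 2.33 ± 0.49, 2.72 ± 0.22, 2.28 ± 0.17 and 2.75 ± 0.29, with adjusted p-values of 0.000232, 7.26e-10, 1.92e-10 and 2.54e-08. In TRAP Arc lay at 14.4 to 65.9 cpm (RBP4) and 15.8 to 45.3 cpm (VGAT), and Ddn at 65.8 to 111 and 42.3 to 115 cpm. Ppp1r9b lay at 33.0 to 104 and 40.3 to 121 cpm, and Map2 at 300.4 to 441 and 199.6 to 337 cpm. Arc in RBP4-TRAP mice missed the threshold without replicate 1 (1.34, adjusted p = 0.0659) or 4 (1.31, adjusted p = 0.0517), and Ppp1r9b was at 3.48 without replicate 5, which held its highest TRAP level, and at 2.58 without replicate 3, which held its highest ST level.

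The members that fell in ST were Nrgn and activity-induced factors. Nrgn fell by 1.28 ± 0.22 in RBP4-TRAP mice (adjusted p = 4.79e-05, and -1.53 without replicate 5) and by 0.45 ± 0.19 in VGAT-TRAP mice (adjusted p = 0.0389). The latter call was lost without replicate 1 (adjusted p = 0.169), 2 (0.0729), 4 (0.0848) or 5 (0.0997), with TMM factors (-0.42, 0.0818) and in the fit of all 40 libraries (0.0532). In RBP4-TRAP mice 4 of 5 factors fell, with log2 fold changes of -1.86 ± 0.35 for Egr1 (adjusted p = 0.000113), -1.53 ± 0.34 for Fos (0.00056), -1.48 ± 0.52 for Junb (0.0182) and -1.13 ± 0.43 for Nr4a1 (0.0297). Junb missed the threshold without replicate 1 (0.076) or 2 (0.0751), and Nr4a1 without 1 (0.109), 2 (0.0703) or 4 (0.101). In VGAT-TRAP mice Egr1 fell by 1.35 ± 0.24 (adjusted p = 3.82e-05) and Fos by 0.94 ± 0.38 (adjusted p = 0.0332, and 0.0803, 0.0636 and 0.117 without replicates 1, 3 and 4). Nr4a1 (-0.97 ± 0.46) and Junb (-0.81 ± 0.43) did not pass the unblocked test there, and with the pool as a block they were at -0.86 (adjusted p = 2.67e-05) and -0.94 (adjusted p = 0.00106). Npas4, with 1 to 12 reads in TRAP of VGAT-TRAP mice, was at 1.10 ± 0.54 (adjusted p = 0.0723) and with the block at 1.12 (adjusted p = 0.0229).

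The order of levels is best read per length of exon, as cpm per kb. In ST the 5 dendritic mRNAs held the first 5 places in each line: Nrgn (275 in RBP4-TRAP and 241 in VGAT-TRAP mice), Ddn (113 and 134), Ppp1r9b (93.1 and 92.6), Map2 (68.8 and 74.5) and Arc (44.7 and 53.2), followed by Egr1 (27.6 and 28.3). In TRAP of RBP4-TRAP mice the order was another one, with Nrgn at 669, Egr1 at 101, Fos at 26.8 and Nr4a1 at 24.9 before Ddn at 22.3, Map2 at 22, Arc at 16.7 and Ppp1r9b at 11.3. Many of these neighbours lie within one another's SD, such as Fos and Nr4a1 (SD 5.80 and 9.84). When the 8 groups were ordered by a gene's mean, neighbouring groups rarely stood apart. For Ddn the ST groups lay above all others, for Ppp1r9b likewise, for Nrgn RBP4 TRAP stood alone at the top, and for Map2 the TRAP groups lay apart at the bottom. For Arc and each activity-induced factor every pair of neighbouring groups overlapped.

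**Figure D4:**
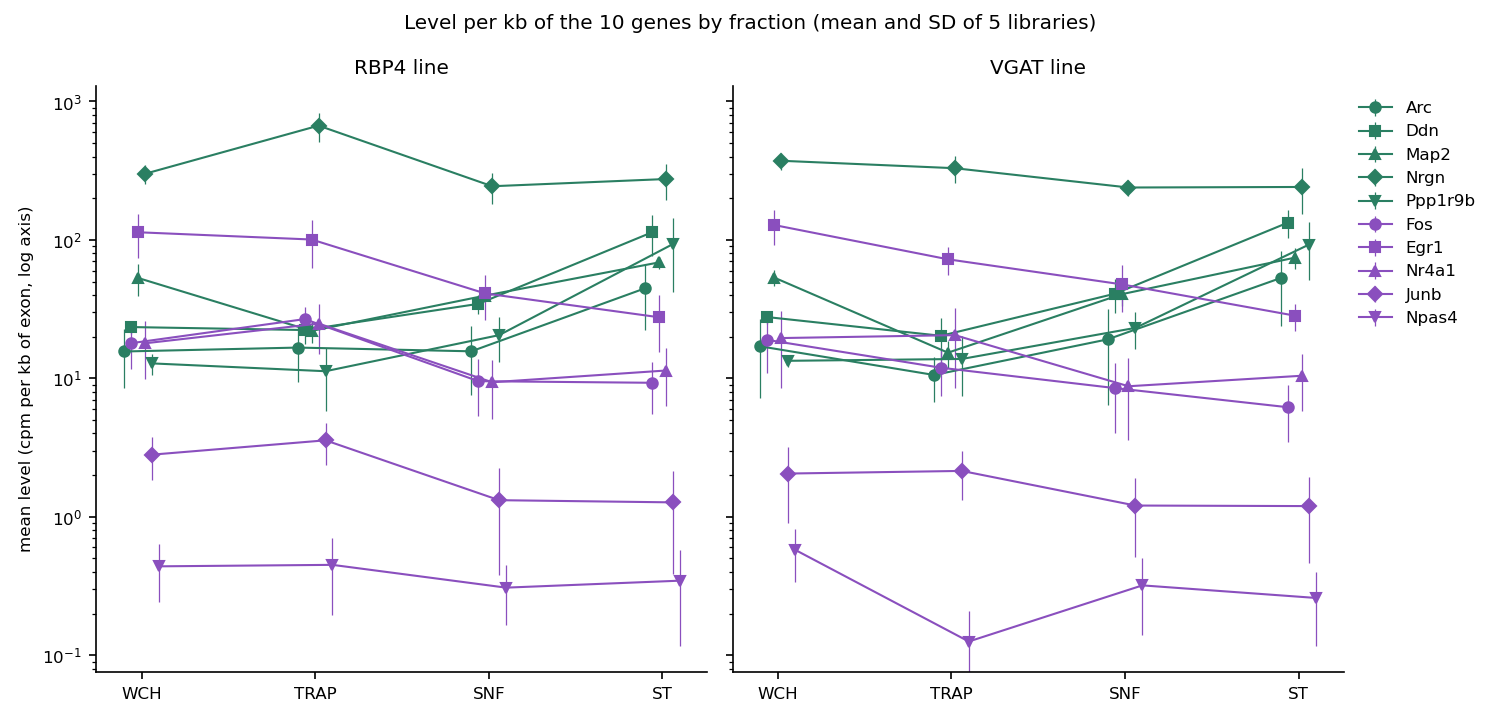
Mean level per kb of exon on a log axis, by fraction, with SD bars over 5 libraries; green marks the dendritic mRNAs and purple the activity-induced factors. Egr1 lies above Ddn, Map2, Arc and Ppp1r9b in WCH and below all of them in ST, in each line. Without division by length, Map2 lies above Egr1 in WCH (873 against 509 cpm in the RBP4 line, 878 against 574 cpm in the VGAT line).

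Comparing the lines within TRAP asks whether these mRNAs differ between the tagged cell types. WCH and SNF were taken without capture, so a comparison there does not address those cell types. In ST the lines were poorly separated. There 0 of 5 layer 5 and excitatory and 0 of 5 GABAergic markers were called between lines, while 2 of 6 striatal markers were lower in RBP4-TRAP mice. In WCH, SNF and ST 0 of 10 genes were called by edgeR's quasi-likelihood test, 0 reached an unadjusted p under 0.05 and DESeq2 called 0. Few genes of any kind differed there: 0.00592% were called higher in RBP4-TRAP mice and 0.00592% lower in WCH, 0.00592% and 0.0118% in SNF, and 0.0592% and 0.266% in ST. In ST the differences of the dendritic mRNAs ran from -0.25 ± 0.46 (Arc) to 0.19 ± 0.21 (Nrgn) on the log2 scale, and those of the activity-induced factors from -0.04 ± 0.29 (Egr1) to 0.58 ± 0.34 (Fos).

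In TRAP, 4 of 10 genes were higher in RBP4-TRAP mice (12.9% of all genes) and 0 were lower (15.1%). Nrgn was higher by 1.02 ± 0.22 (adjusted p = 0.000467), with no overlap between the lines, Fos by 1.17 ± 0.34 (adjusted p = 0.00912), Npas4 by 1.85 ± 0.61 (adjusted p = 0.0224) and Map2 by 0.52 ± 0.18 (adjusted p = 0.0258). Map2 missed the threshold without RBP4 replicate 1 or 5 or VGAT replicate 1, 2 or 4 (0.0628 to 0.0899) and with no filter on low counts (0.0525), and Npas4 without RBP4 replicate 5 (0.0621) or VGAT replicate 4 (0.0696) or 5 (0.0596). Whether the step between fractions differed between the lines was tested as an interaction. For ST less TRAP 0 of 10 genes were called by edgeR and 0 by DESeq2 (5.02% of genes passed upward, 5.79% downward), with 2 at an unadjusted p under 0.05 (Nrgn, -0.83 ± 0.30, and Map2, -0.64 ± 0.25). Nrgn passed without RBP4 replicate 5 (-1.08, adjusted p = 0.0147) and Map2 without VGAT replicate 3 (-0.81, adjusted p = 0.0375), and with the pool as a block Arc was called (-0.77, adjusted p = 0.0267), where 5.46% of genes passed upward and 6.12% downward. For TRAP less WCH, a comparison added after the data had been seen, Nrgn was called (1.33 ± 0.30, adjusted p = 0.00219), where 5.63% of genes passed upward and 6.97% downward. With the pool as a block, Nrgn (1.38, adjusted p = 0.00123), Fos (1.30, adjusted p = 0.000397) and Npas4 (2.14, adjusted p = 0.0293) were called, beside 6.05% and 7.54% of genes. SNF less WCH and ST less SNF, also added, gave 0 calls among the 10 genes, of which 0 reached an unadjusted p under 0.05, and 0% of all genes, of which 81 and 449 did so.

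Arc differed between pools more than nearly all genes. In WCH its levels were 51.6, 50.6, 13.2, 73.9 and 49.5 cpm in RBP4-TRAP mice and 76.3, 87.8, 28.8, 49.0 and 18.2 cpm in VGAT-TRAP mice, a range of 5.60-fold and 4.82-fold. The SD of its log2 level over the pools was at the 99.3 percentile (RBP4) and the 99.7 percentile (VGAT) of the 10791 genes whose mean reached 5 cpm, whereas Ddn was at the 14.7 and 39.6 percentiles. Its lowest pool was replicate 3 in all 4 fractions of RBP4-TRAP mice and replicate 5 in all 4 fractions of VGAT-TRAP mice. Why pools differed was not tested, and no label gives the time or handling of each pool.

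Over the 10 WCH libraries the level of Arc was set beside that of the other 9 genes, and 4 activity-induced factors (Nr4a1, Fos, Junb and Egr1) had an adjusted permutation p under 0.05. Whether the factors differ from the dendritic mRNAs in this was not tested. How many of all genes reach such values with Arc was not counted, so the 4 have no background to be set against. Of the 9 relations, Nr4a1 had Pearson's r = 0.982 (permutation test, two-sided, p = 4e-05, adjusted p = 0.00036, Spearman's rho = 0.915, permutation p = 0.00046), and r was 0.933 without the 2 pools farthest from Arc's median and 0.969 and 0.997 within the RBP4-TRAP and VGAT-TRAP pools. Fos had r = 0.963 (permutation p = 0.00016, adjusted p = 0.00072, rho = 0.927, permutation p = 0.00028), 0.878 without the farthest 2, and 0.938 and 0.989 within lines. Junb (r = 0.799, rho = 0.806) and Egr1 (r = 0.782, rho = 0.830) had adjusted permutation p-values of 0.0155 each, with 0.750 and 0.760 without the farthest 2 and 0.945 and 0.883 (Junb) and 0.726 and 0.892 (Egr1) within lines. Npas4 (r = 0.676, rho = 0.612, adjusted permutation p = 0.0704) rested on the farthest 2 pools, since r was 0.047 without them. Ppp1r9b had r = 0.545 (adjusted permutation p = 0.185) and rho = 0.661 (permutation p = 0.0447, adjusted p = 0.0805), with 0.433 without the farthest 2 and 0.466 and 0.775 within lines. Nrgn had r = 0.335 (adjusted permutation p = 0.385) and rho = 0.442 (adjusted permutation p = 0.23), with 0.654 without the farthest 2 and -0.040 and 0.848 within lines. Ddn (r = -0.303, rho = -0.321, adjusted permutation p = 0.392 for r) and Map2 (r = -0.463, rho = -0.467, adjusted permutation p = 0.216 for r) were at -0.342 and -0.321 without the farthest 2, and within lines at -0.824 and -0.091 (Ddn) and -0.500 and -0.477 (Map2).

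**Figure D5:**
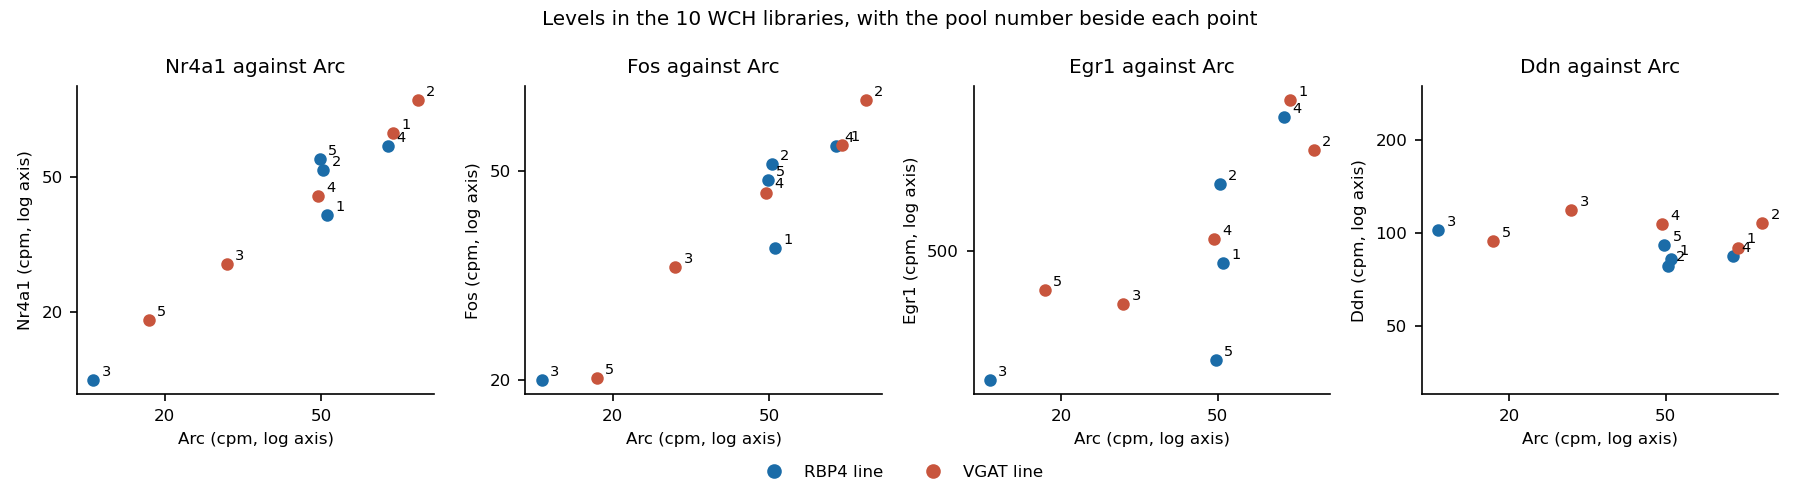
Levels of Nr4a1, Fos, Egr1 and Ddn against Arc in the 10 WCH libraries, in cpm on log axes, with the replicate number at each point (blue RBP4, red VGAT). Nr4a1 and Fos lie close to a line over pools of both lines (r = 0.982 and 0.963), while Ddn stays between 78.5 and 119 cpm.

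Likeness over all 40 libraries, as Pearson's r of log2(cpm + 1) among 10791 genes, is a description in which fraction and pool are shared. Ddn was closest to Nfic (0.973), Ttbk1 (0.970) and Zc3h7b (0.968), and Ppp1r9b to Tmcc2 (0.979), Mllt6 (0.969) and Neurl1a (0.968). Map2 had Spop (0.926), Limd1 and Med13l (0.925 each), and Nrgn had 1110008P14Rik (0.881), Rprml (0.862) and 1700001L19Rik (0.858). Arc had no close match, the nearest being Tmem28 (0.792), Srf (0.763), the gene of serum response factor, and Bicdl1 (0.754). Fos was closest to Dusp5 (0.890), Dusp1 (0.888) and Nr4a1 (0.879), Nr4a1 to Dusp1 (0.923), Fos (0.879) and Egr2 (0.873), and Junb to Nr4a1 and Dusp5 (0.871 each) and Fos (0.862). Egr1 had Atg4c (0.950), an Ensembl gene without a symbol here (0.948) and Ncoa7 (0.945), and Npas4 had Btg2 (0.802), Ptpn3 (0.685) and Trib1 (0.679).

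The wider lists were chosen for what their genes are known for, with earlier results of these data known, and are given by counts. Of 12 further mRNAs known in dendrites, 6 rose and 1 fell from SNF to ST in RBP4-TRAP mice, with a median of 0.76 against -0.05 over all genes (5.64% higher, 5.46% lower), and 9 rose and 2 fell in VGAT-TRAP mice, with a median of 1.16 against 0.08 (16.3% and 11.2%). Shank3 and Dlgap3, which encode scaffolds of the postsynaptic density, rose by 2.32 and 1.95 (RBP4) and by 2.46 and 2.47 (VGAT), close to Ppp1r9b. Ntrk2, the gene of the receptor of the growth factor BDNF, fell by 0.96 and 0.77. From WCH to SNF 2 of the 12 rose and 1 fell in RBP4-TRAP mice, and 5 rose and 2 fell in VGAT-TRAP mice, where 13.4% and 19.3% of all genes rose and 36.1% and 45.2% fell.

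Of 12 further activity-induced transcription factors, 0 rose and 6 fell from WCH to SNF in each line, with medians of -0.83 and -0.80 against -0.50 and -0.52 over all genes. Of all genes 36.1% and 45.2% were called lower, so that 6 of 12 is close to that share in VGAT-TRAP mice. Nr4a2, a relative of Nr4a1, fell by 1.03 and Egr2 by 1.16 in RBP4-TRAP mice, and Fosl2 by 0.79 and Nr4a3 by 0.91 in VGAT-TRAP mice. From SNF to ST 1 of the 12 rose in RBP4-TRAP mice (Egr4, 1.05, adjusted p = 0.0498) and 2 in VGAT-TRAP mice (Fosl2, 0.60, and Nr4a3, 0.63), and 0 fell, beside 5.64% and 16.3% of all genes that rose. From TRAP to ST they were divided, with 3 higher and 2 lower in RBP4-TRAP mice and 4 and 1 in VGAT-TRAP mice, and the higher counts do not exceed the shares of all genes (26% higher and 29.1% lower, and 37.5% and 34%). Klf4 (3.50 and 3.35), a factor also made by endothelial cells, and Nr4a2 (0.84 and 1.42) were among those that rose. All 5 endothelial markers rose from TRAP to ST in each line as well, and their part in the values of Klf4 was not tested.

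Activity-induced genes that encode no transcription factor were mixed: of 12, 3 rose and 4 fell from WCH to SNF in RBP4-TRAP mice, and 4 rose and 6 fell in VGAT-TRAP mice. The falls were near the shares of all genes (36.1% and 45.2% lower, with 13.4% and 19.3% higher). Vgf, the gene of a secreted neuropeptide precursor, rose by 1.76 and 2.30, while Homer1, the gene of a postsynaptic scaffold, fell by 1.22 and 1.16 and Rheb by 1.19 and 1.17. Nuclear-retained RNAs served as a check on nuclei: all 4 (Malat1, Neat1, Meg3 and Miat) fell from WCH to TRAP in each line, and from WCH to SNF 3 fell in RBP4-TRAP mice and 2 in VGAT-TRAP mice, beside 36.1% and 45.2% of all genes. Malat1 was at -1.99 and -1.50, and Neat1, which did not pass the test, at -0.22 and -0.35. The part of nuclear RNA in the values of Egr1 and Fos was not tested.

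The 3′ UTRs of the dendritic members were 863 bases (Nrgn) to 3576 bases (Map2) long and those of the activity-induced factors 485 (Junb) to 1216 bases (Egr1), against a median of 960 bases over 21024 genes. GC content was high for Ppp1r9b (57.9%), Arc (57.1%), Nrgn (54.5%) and Ddn (52.6%), over a median of 43.4%, and low for Map2 (36.1%). The activity-induced factors spanned 40.4% (Fos) to 57.2% (Npas4).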

How the data were processed

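RNA of 40 libraries (2 lines, 4 fractions, 5 pools each) was sequenced after amplification with a kit that does not mark strand. The authors aligned reads with STAR 2.0.4b and deposited raw counts per gene from featureCounts 1.4.5 (Subread), with gene and exon coordinates that are those of GRCm38. The authors also deposited CPM and RPKM values, which were recomputed from the counts as a check and are not printed. Mitochondrial, rRNA and tRNA genes (390 genes) were left out of library sizes, as mitochondrial genes took 0.0584% to 41.9% of counts, which left 8950847 to 21976631 counts per library. All cpm values here are on that size.

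The main test was the quasi-likelihood test of edgeR 4.0.16 in R 4.3.3, without further scaling factors and without a replicate block, on genes reaching 0.5 cpm in 3 or more libraries, with p-values adjusted by Benjamini-Hochberg over all genes tested and called at 0.05. Fractions were compared within a line (20 libraries) and lines within a fraction or as an interaction (30 libraries, or 40 where SNF entered). SE is that of the log2 fold change. Alternatives were the likelihood ratio test, DESeq2 1.42.0, TMM factors, no filter, a filter of 1 cpm in 5 libraries, all 40 libraries, a replicate block and leaving out each replicate. The scripts were tested on simulated data. Within a line, libraries with the same number in their titles were taken to come from the same pool. The titles name no pool, and the pairing rests on the paper's statement that 4 samples were collected from each replicate. The correlation of deviations between paired libraries averaged 0.0252 to 0.387 over pairs of fractions. It was lowest for ST and TRAP, at 0.0252 (RBP4) and 0.051 (VGAT). Ratios within a pool were taken after adding 0.5 counts, and correlations across pools used 1e+05 permutations. Intervals and errors cover these 5 pools of each group.

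All 10 genes are named, wider lists are given by counts with at most 2 genes of smallest p in each direction, and likeness by 3 genes. Neat1, Meg3 and the second line's value of a named gene that is outside that rule were chosen after their values were seen. The 10 genes and all lists were chosen with earlier results of these data known. Promoter sequences are from the RefSeq promoter table of GRCm38.p6.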

Additional observations from a re-analysis of the deposited data

Results flagged for a closer look

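With 5 libraries a group, 80 groups of a gene, line and fraction were checked for a library far from the other 4, by a gap share above 0.71 of the group's range, and 3 had one. Chance alone gives about 1 in 20, or 4 of 80, so that 3 is no excess. All 3 were replicate 3 of VGAT-TRAP mice. Ddn stood at 225 cpm in SNF against 123 to 146 cpm in the others (gap share 0.775), Nrgn at 575 cpm in ST against 275 to 343 cpm (0.775) and Ppp1r9b at 836 cpm in ST against 319 to 443 cpm (0.761). The SNF and ST libraries of this pool also had the highest mitochondrial share of their groups, at 41.9% and 19.0%, and the highest summed astrocyte levels. Whether these bear on the 3 values was not tested.

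The change from WCH to TRAP differed between the lines for Nrgn, by 1.33 ± 0.302 on the log2 scale (SE, edgeR, adjusted p = 0.00219), with TRAP higher in 5 of 5 RBP4-TRAP pools and 1 of 5 VGAT-TRAP pools. For Fos the difference was 1.25 ± 0.474 (adjusted p = 0.0873), which did not pass the test, and with the pool as a block it was 1.30 (adjusted p = 0.000397). TRAP was higher in 5 of 5 RBP4-TRAP pools and 0 of 5 VGAT-TRAP pools. In the blocked fit Nrgn was at 1.38 (adjusted p = 0.00123). This comparison was added after the data had been seen.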

How the results depend on the processing

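Of 100 single-gene results 44 passed the threshold, and 25 of these kept direction and call in every alternative run. The filter of 1 cpm in 5 libraries changed 0 of 100 calls or directions and the likelihood ratio test 1. With the replicate block the number of the 10 genes called from WCH to TRAP was 4 rather than 2 (RBP4) and 6 rather than 3 (VGAT), from WCH to SNF 5 rather than 3 (RBP4) and 9 rather than 7 (VGAT), from SNF to ST 6 rather than 5 and from TRAP to ST 10 rather than 7 (both VGAT), for ST less TRAP between the lines 1 rather than 0 (Arc, -0.77, adjusted p = 0.0267) and for TRAP less WCH 3 rather than 1 (Nrgn, Fos and Npas4). For these last comparisons the block was the pool. Where lines were compared within 1 fraction, libraries with the same number came from different pools. The correlation of their deviations averaged 0.101 in WCH, 0.082 in TRAP, 0.172 in SNF and 0.020 in ST. For different numbers it averaged -0.025, -0.020, -0.040 and -0.005. Single values in SNF ran from -0.132 to 0.540. Whether pools of the same number were handled together was not tested. The block by number left 0, 4, 0 and 0 genes called in WCH, TRAP, SNF and ST. From WCH to SNF in VGAT-TRAP mice 7 genes were called and 3 with DESeq2 or TMM. Leaving out 1 replicate gave 2 to 2, 1 to 4, 2 to 4 and 6 to 9 genes in RBP4-TRAP mice (TRAP against WCH, SNF against WCH, ST against SNF, ST against TRAP), 3 to 5, 4 to 7, 3 to 5 and 5 to 7 in VGAT-TRAP mice, 2 to 4 for TRAP between the lines, 0 to 1 for ST less TRAP, and 0 to 0 for WCH, SNF and ST between the lines.

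Directions turned as follows, the cause not being tested. From WCH to TRAP in RBP4-TRAP mice, DESeq2 and TMM gave 0.20 and 0.21 for Ddn, 0.076 and 0.082 for Ppp1r9b and 0.13 and 0.13 for Egr1, and the block -0.18 for Npas4. In VGAT-TRAP mice they gave 0.052 and 0.071 for Nrgn, and the block -0.077 for Ppp1r9b. From WCH to SNF, DESeq2 and TMM gave 0.14 and 0.056 for Nrgn (RBP4), DESeq2 0.049 for Map2 (VGAT), the 1 called result that turned, and the block -0.047 for Arc (RBP4). From SNF to ST the block gave 0.018 for Fos (RBP4), and Nrgn (VGAT) was at -0.12 with DESeq2, -0.071 with TMM and -0.020 with the block. Leaving out 1 replicate gave, in RBP4-TRAP mice, -0.25 to 0.24 for Npas4 (TRAP against WCH), -0.11 to 0.082 for Arc (SNF against WCH), and -0.16 to 0.12 for Fos and -0.26 to 0.058 for Junb (ST against SNF). In VGAT-TRAP mice it gave -0.25 to 0.23 for Ppp1r9b, -0.039 to 0.16 for Nr4a1 and -0.11 to 0.41 for Junb (TRAP against WCH), and -0.22 to 0.13 for Nrgn and -0.090 to 0.051 for Junb (ST against SNF). Between the lines Ddn in TRAP ran from -0.013 to 0.34 and Ppp1r9b in ST less TRAP from -0.17 to 0.73. Low counts limit Npas4 and Junb.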
